A study of Mus musculus with 13 samples.

Results

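The S100 genes S100a1, S100a4, S100a6, S100a8, S100a9, S100a10, S100a11 and S100a13 were followed across sorted bone marrow stem and progenitor cells of mice with and without the leukaemia fusion gene PML-RARA. These 8 genes were taken from 16277 with a probe set, by the rule that a probe set was annotated to exactly 1 of them, which gave 35 probe sets. They were chosen from earlier results of the same arrays, on their log2 intensities across all 5 groups, so their levels and differences are given as a description with standard errors and without p-values. Limma calls among the 8 are counted as a description and are no test of them. S100a1 had 7 probe sets, S100a13 had 6, S100a11 had 5, S100a8 and S100a10 had 4 each, and S100a4, S100a6 and S100a9 had 3 each. All 8 passed the filter on low values. Of the other S100 genes, 6 had probe sets. S100a3, S100a5, S100a7a, S100a14 and S100b lay below the filter, with means over all arrays of 5.20 to 5.70 on the log2 scale, and S100g passed it.

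Each of the 13 arrays (Affymetrix Mouse Exon 1.0 ST) held RNA of flow-sorted cells from the femurs and tibias of 1 mouse of the strain labelled Bl/6 Taconic. The mCG-PR mice (genotype label mCG-PR N17) expressed PML-RARA, the fusion protein of acute promyelocytic leukaemia, from the murine Ctsg locus, which encodes the granule protease cathepsin G, and the wild-type (WT) controls were littermates. KLS cells came from 4 WT mice aged 12 or 13 weeks, from 3 mCG-PR mice aged 6 weeks and from 2 mCG-PR mice aged 13 weeks. SLAM cells came from 2 WT mice aged 6 weeks and 2 mCG-PR mice aged 7 weeks. KLS is the usual name for the Kit-positive, lineage-negative, Sca-1-positive cells, which hold stem cells and early progenitors. SLAM names a subset richer in long-term stem cells, sorted by receptors of the SLAM family. The labels name both populations without their gates. No treatment is named in the labels. The WT KLS mice were older than the mCG-PR KLS mice of 6 weeks, and the WT KLS mice of 13 weeks were replicates 1 and 2.

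S100 proteins are small EF-hand proteins that bind calcium and then expose a surface for partner proteins. S100A8 and S100A9 pair as calprotectin, the most abundant cytosolic protein complex of neutrophils, which binds calcium, zinc and manganese and, once released, acts on the receptors TLR4 and RAGE. In bone marrow their transcripts rise as granulocytes mature, so they are widely used as markers of granulocytic differentiation, a process that PML-RARA disturbs. S100A10 and S100A11 are partners of annexins, S100A4 and S100A6 act on the cytoskeleton and calcium signalling, S100A1 on calcium handling, and S100A13 in the release of cytokines that lack a signal peptide.

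The 8 genes lie on chromosome 3 in the order S100a1, S100a13, S100a4, S100a6, S100a8, S100a9, S100a11 and S100a10. Promoter windows of 300 bases, from 250 before to 50 after the annotated start, were found for 7 of the 8 in the RefSeq promoter table (GRCm38.p6); S100a10 had no entry. The windows of S100a8 (chr3:90668821-90669120, plus strand) and S100a9 (chr3:90695672-90695971, minus strand) are shown because these neighbours had nearly parallel values across arrays, and that of S100a6 (chr3:90612644-90612943, plus strand) because its values followed theirs among KLS arrays. Capitals mark TATAAA (the TATA box), TTNNGNAA (a loose form of the C/EBP site) and GAGGAA (the core of many PU.1 sites), each searched on both strands.
S100a8: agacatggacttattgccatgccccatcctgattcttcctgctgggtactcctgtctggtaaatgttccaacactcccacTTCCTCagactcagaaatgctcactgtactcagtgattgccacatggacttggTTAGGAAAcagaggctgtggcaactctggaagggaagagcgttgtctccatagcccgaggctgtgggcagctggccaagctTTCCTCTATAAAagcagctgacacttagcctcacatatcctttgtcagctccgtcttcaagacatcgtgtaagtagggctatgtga
S100a9: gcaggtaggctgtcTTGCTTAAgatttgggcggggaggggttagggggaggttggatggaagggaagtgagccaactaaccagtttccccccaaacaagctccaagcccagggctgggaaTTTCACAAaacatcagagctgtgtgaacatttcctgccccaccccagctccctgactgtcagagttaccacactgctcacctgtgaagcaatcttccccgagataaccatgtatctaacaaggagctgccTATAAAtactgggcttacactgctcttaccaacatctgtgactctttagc
S100a6: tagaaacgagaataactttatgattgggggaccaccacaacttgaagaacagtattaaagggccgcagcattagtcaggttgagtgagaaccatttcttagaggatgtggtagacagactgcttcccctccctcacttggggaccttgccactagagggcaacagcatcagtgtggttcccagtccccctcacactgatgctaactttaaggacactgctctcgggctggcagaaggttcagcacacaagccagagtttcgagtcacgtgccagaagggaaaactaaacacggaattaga
TATAAA stood in the windows of S100a4, S100a8 and S100a9, and in 13.6% of all 32851 promoter windows of that length. In S100a8 it began 30 bases before the start and directly followed a GAGGAA match on the other strand, so the 2 motifs form 1 run of capitals there. In S100a9 it began at the annotated start itself. TTNNGNAA stood in S100a8 and S100a9 alone among the 7 windows, and in 40.7% of all windows. GAGGAA stood in S100a4, S100a8 and S100a11 and in 28.3% of all windows. The window of S100a6 held none of these letters. AGGTCA, the half-site of retinoid receptors, stood in S100a4 and S100a11 and in 16.3% of all windows, and TGANTCA, the AP-1 site, in S100a11 alone and in 7.81% of all windows. The windows of S100a1 and S100a13, which run in opposite directions, shared 204 of 300 bases.

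Some facts of the whole series bear on every value below. Gene profiles of replicates correlated at 0.95 to 0.966 within the KLS groups, but at 0.827 between the 2 WT SLAM arrays and at 0.821 between the 2 mCG-PR SLAM arrays. Array medians lay between 98.6 and 115.3 intensity units, and with 2 to 4 arrays in a group the precision is limited. The listed gate markers mostly followed the labels. The 7 for SLAM averaged higher in SLAM than KLS cells, with 3 called in WT and 7 in mCG-PR (against KLS of 6 weeks). Of the 5 for KLS, Cd34, Flt3 and Cd48 were called lower in SLAM cells of both genotypes, and Kit and Ly6a were not. Cd48, which SLAM gating removes, had means of 8.83 to 9.37 in the KLS groups against 5.13 in WT SLAM and 4.25 in mCG-PR SLAM. Slamf1, which marks SLAM cells, had means of 5.46 to 5.98 in the KLS groups against 7.58 and 6.42. Its lower mCG-PR SLAM array (6.21) lay within the KLS range (up to 6.31). By limma, Flt3 was higher in mCG-PR than in WT SLAM (0.87, standard error 0.21, limma adjusted p = 0.0448), in 5 of 13 alternatives. The summed intensity of 14 mature neutrophil markers was 15184 in WT SLAM replicate 2 against 2062 to 4221 elsewhere. The mean of 2 Y-linked genes was 4.53 or lower in both mCG-PR SLAM arrays and in replicate 3 of mCG-PR KLS of 6 weeks and 7.67 or higher elsewhere. The labels give no sex, and in SLAM cells this split and the genotype cannot be told apart.

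**Figure D1:**
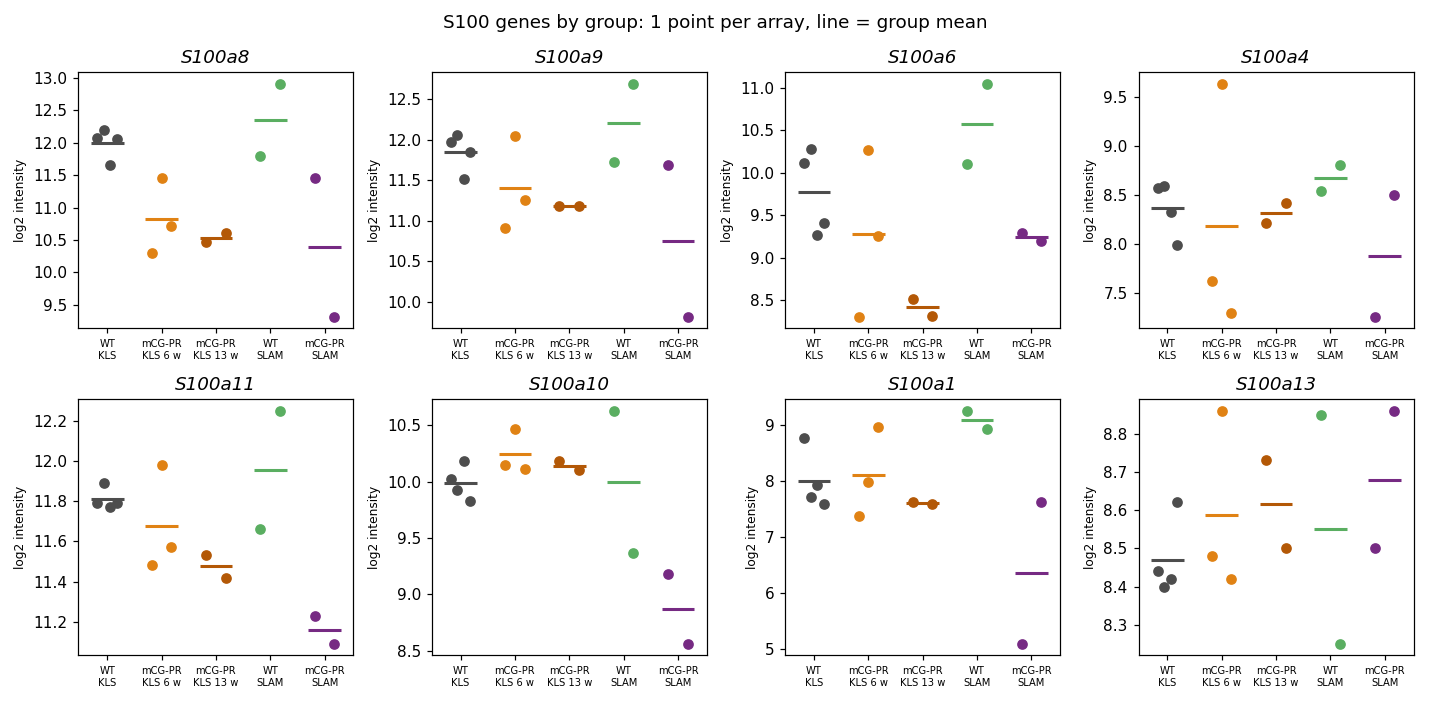
Log2 intensity (y axis) of the 8 S100 genes in the 5 groups (x axis), with 1 point per array and a line at the group mean. For S100a8 all 5 mCG-PR KLS arrays (10.30 to 11.46) lie below all 4 WT KLS arrays (11.65 to 12.20), and for 7 genes both mCG-PR SLAM arrays lie below both WT SLAM arrays.

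S100a8, the smaller subunit of calprotectin, was lower in mCG-PR than in WT KLS cells at both ages. Its log2 intensity was 12.07, 12.20, 11.65 and 12.05 in the WT KLS arrays, 10.30, 11.46 and 10.71 in mCG-PR KLS of 6 weeks, and 10.47 and 10.60 in mCG-PR KLS of 13 weeks. No mCG-PR array reached the lowest WT array. The difference was -1.17 ± 0.42 at 6 weeks, or 2.25-fold lower, and -1.46 ± 0.48 at 13 weeks, or 2.75-fold lower, where values after ± are limma standard errors unless marked SD. Both comparisons used the same WT KLS arrays. All 4 probe sets were lower at both ages, with differences of -1.55 to -0.69 at 6 weeks and -1.67 to -1.25 at 13 weeks.

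In SLAM cells S100a8 was 11.79 and 12.91 in the WT arrays and 11.45 and 9.32 in the mCG-PR arrays. The mCG-PR arrays were again the lower ones, with a difference of -1.96 ± 0.56, but the 2 mCG-PR SLAM arrays lay further apart than the nearest arrays of the 2 genotypes. Over both populations, S100a8 was the only one of the 8 genes that was lower in all 7 mCG-PR arrays than in all 6 WT arrays. This held for 6 of the 10575 genes tested (0.0567%), with 24 (0.227%) higher throughout. Within KLS alone it held for 69 genes (0.652%, with 3.55% higher throughout), again with S100a8 the only one of the 8. The groups fell in the order WT SLAM (12.35 ± 0.79 SD), WT KLS (11.99 ± 0.24 SD), mCG-PR KLS of 6 weeks (10.82 ± 0.59 SD), mCG-PR KLS of 13 weeks (10.54 ± 0.10 SD) and mCG-PR SLAM (10.39 ± 1.51 SD). Only the step from WT KLS to mCG-PR KLS of 6 weeks separated neighbours whose arrays did not overlap.

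S100a9, the other subunit, had a smaller difference in its gene value, the median of 3 probe sets. It was 11.97, 12.05, 11.52 and 11.85 in WT KLS, 10.91, 12.04 and 11.26 in mCG-PR KLS of 6 weeks, and 11.18 in both mCG-PR KLS arrays of 13 weeks. Replicate 2 of 6 weeks lay inside the WT range, so the groups overlapped at 6 weeks (-0.45 ± 0.39) and did not at 13 weeks (-0.67 ± 0.44). The 6-week value was -0.20 without replicate 1 of 6 weeks and -0.77 without replicate 2. In SLAM cells it was 11.72 and 12.69 in WT and 11.69 and 9.82 in mCG-PR. The difference there was -1.45 ± 0.51, and the nearest arrays of the 2 genotypes, 11.72 and 11.69, almost met. It was -2.38 without mCG-PR SLAM replicate 1 and -0.51 without replicate 2, and for S100a8 these values were -3.03 and -0.90. Without WT SLAM replicate 2, the array with the high neutrophil markers, it was -0.96 for S100a9 and -1.40 for S100a8. Without WT SLAM replicate 1 these values were -1.93 and -2.52. All 3 probe sets of S100a9 were lower in mCG-PR in each of these comparisons. Their differences were -0.70 to -0.44 at 6 weeks, -1.18 to -0.63 at 13 weeks and -1.62 to -0.95 in SLAM. At 13 weeks the lowest of them (-1.18) came near the highest of the S100a8 probe sets (-1.25).

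Because the 2 genes had parallel values (Pearson r = 0.95 over 13 arrays and 0.92 over the 9 KLS arrays), S100a8 was also read relative to S100a9 on the same array. This measure was chosen after the values were seen and is a description; its zero has no meaning, since the 2 genes have different probes, and only its change between arrays does. It was 0.10, 0.15, 0.13 and 0.20 in WT KLS, and 0.07 and 0.22 in WT SLAM. It was -0.61, -0.58 and -0.54 in mCG-PR KLS of 6 weeks, -0.71 and -0.58 in mCG-PR KLS of 13 weeks, and -0.24 and -0.50 in mCG-PR SLAM. The WT arrays of both populations shared a narrow range, and all mCG-PR arrays lay below it. The mean was 0.15 ± 0.06 (SD, n = 6) in WT and -0.54 ± 0.15 (SD, n = 7) in mCG-PR, a difference of -0.68, or 1.61-fold, with a gap of 0.31 between the nearest arrays. S100a9 itself differed by genotype, and of the 10574 other genes taken relative to it, S100a8 alone (0.00946%) was lower in all mCG-PR arrays, while 151 (1.43%) were higher in all of them.

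The separation was seen in the gene values and in few single pairs of probe sets. The group means of S100a9 lay close to those of 1 of its 3 probe sets. At 13 weeks that probe set differed by -0.63 from WT KLS, and the others by -1.05 and -1.18. For the 12 pairs of 1 S100a8 and 1 S100a9 probe set, the mean was lower in mCG-PR in all 12, with differences of -0.82 to -0.22, but the arrays of the genotypes did not overlap for only 2 of them, and within KLS for 4. With the mean of probe sets in place of the median, the WT arrays spanned -0.03 to 0.21 and the mCG-PR arrays -0.63 to -0.26. The difference was -0.71 after quantile normalisation and -0.73 to -0.65 with any 1 array left out.

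**Figure D2:**
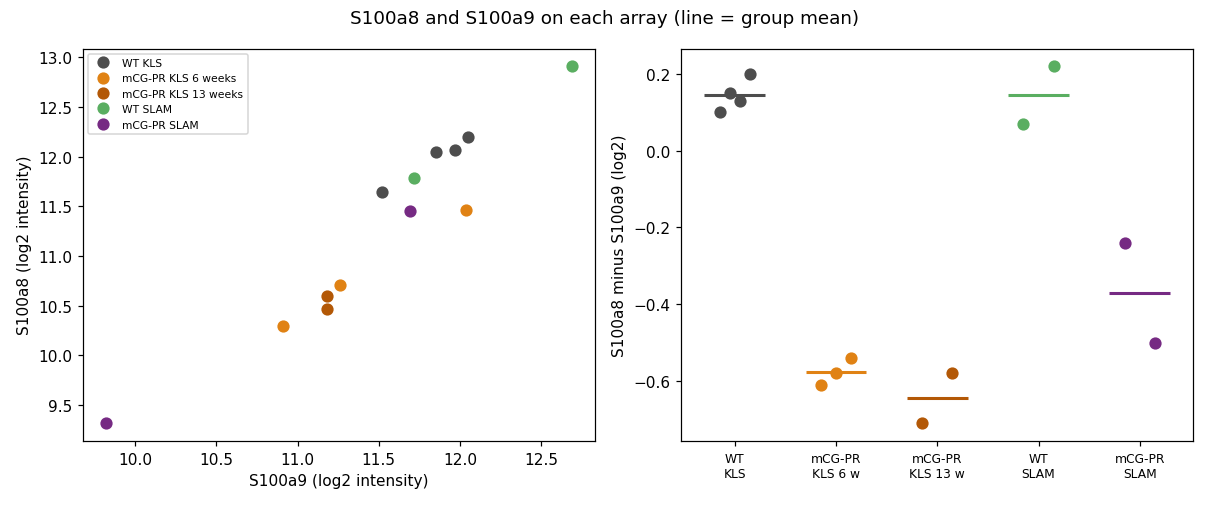
S100a8 against S100a9 in log2 intensity, 1 point per array (left), and S100a8 minus S100a9 on each array by group with a line at the group mean (right). The 6 WT arrays lie between 0.07 and 0.22 and the 7 mCG-PR arrays between -0.71 and -0.24.

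Some genes of mature neutrophils had values like those of S100a8 over the 13 arrays, which fall into shared groups, and others did not. Of 14 measured markers, 12 had a positive Pearson r with S100a8 and 7 of them an r over 0.5, from Ngp (0.89) and Chil3 (0.80) to Csf3r (-0.15) and Padi4 (-0.40). Mmp8 differed by 1.14 ± 0.60 between mCG-PR KLS of 6 weeks and WT KLS (limma adjusted p = 0.775). The summed intensity of 14 measured markers, of 17 listed, was 3369 to 3627 in WT KLS, 2392, 4221 and 2928 in mCG-PR KLS of 6 weeks, 2554 and 2577 in mCG-PR KLS of 13 weeks, 3161 and 15184 in WT SLAM, and 3289 and 2062 in mCG-PR SLAM. Between 0 and 2 of the 14 markers lay under the filter threshold on any array. In bulk samples, fewer cells of a type and less RNA per cell cannot be told apart. Ngp, which encodes a granule protein of maturing neutrophils, was among the genes most like both subunits over 13 arrays (r = 0.888 with S100a8 and 0.922 with S100a9). Its mean was 9.58 in WT KLS, 9.14 and 8.53 in mCG-PR KLS of 6 and 13 weeks, 10.66 in WT SLAM and 7.61 in mCG-PR SLAM.

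The marker list did not give the same order of arrays as S100a8 throughout. Replicate 2 of mCG-PR KLS of 6 weeks had a higher marker sum (4221) than every WT KLS array (at most 3627), and its S100a8 (11.46) was lower than in every WT KLS array (at least 11.65). The other 4 mCG-PR KLS arrays had both a lower sum and a lower S100a8. In limma with Benjamini-Hochberg adjustment, none of the 14 markers was called in either genotype comparison in KLS, with 10 of 14 lower at each age. Of all genes, 28.3% were lower at 6 weeks and 42.3% at 13 weeks. The marker medians were -0.08 and -0.16, against 0.11 and 0.05 for all genes. Ltf, lactoferrin of the secondary granules, fell in mCG-PR against WT SLAM (-2.50 ± 0.49, limma adjusted p = 0.0211), where 10 of 14 markers were lower with a median of -1.32 against -0.02 for all genes. That call was made in 9 of 13 alternatives and was lost without WT SLAM replicate 2 or mCG-PR SLAM replicate 1. Camp, the cathelicidin gene, rose in WT SLAM against WT KLS (1.34 ± 0.38, limma adjusted p = 0.0368), and Itgam fell by 1.05 ± 0.34 in mCG-PR SLAM against mCG-PR KLS of 6 weeks (limma adjusted p = 0.0418); these were called in 6 of 16 and 4 of 14 alternatives. Of the lists of promyelocyte, monocyte, B cell, T and NK cell, erythroid and megakaryocyte markers, limma called no gene by genotype in KLS or SLAM. Between SLAM and KLS cells it called promyelocyte (2 lower in WT, 3 lower in mCG-PR), monocyte and macrophage (2 higher in WT, 2 lower in mCG-PR) and T and NK cell genes (2 lower in each), where 11.6% of all genes were called in WT and 22.6% in mCG-PR. In WT, Mpo was called in 6 of 16 alternatives, C1qb in 7 of 16, Ctsg in 11 of 16, and C1qc and Gzma in 12 of 15 each. In mCG-PR, Ms4a3 was called in 8 of 14, Gzma in 8 of 13 and Ccr2 in 10 of 14. Nkg7 in both genotypes, and Mpo, Ctsg and Csf1r in mCG-PR, were called in every alternative run. The part of these cells or transcripts in the S100 differences was not tested.

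**Figure D3:**
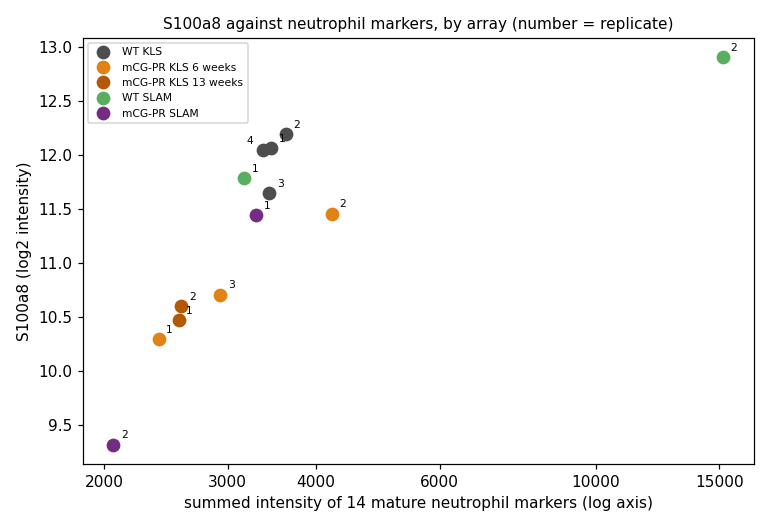
S100a8 (log2 intensity, y axis) against the summed intensity of 14 mature neutrophil markers (x axis, log scale), 1 point per array with its replicate number. The 5 arrays with the lowest marker sums also had the 5 lowest S100a8 values, and replicate 2 of mCG-PR KLS of 6 weeks (4221 and 11.46) lies to the right of and below all 4 WT KLS arrays.

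S100a6, the calcyclin gene, was lower in mCG-PR KLS of 13 weeks. It was 10.12, 10.28, 9.27 and 9.41 in WT KLS, 8.31, 10.27 and 9.26 in mCG-PR KLS of 6 weeks, and 8.52 and 8.32 in mCG-PR KLS of 13 weeks. Replicate 2 of 6 weeks lay inside the WT range, replicate 1 lay below it and replicate 3 just below it. Both 13-week arrays lay below the WT range. The difference was -0.49 ± 0.39 at 6 weeks and -1.35 ± 0.44 at 13 weeks, or 2.54-fold lower, with all 3 probe sets lower at 13 weeks (-1.35 to -0.19). Between the 2 ages of mCG-PR KLS it was -0.85 ± 0.47, with overlapping arrays.

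Between the ages of the WT KLS mice, S100a6 had a mean of 10.20 at 13 weeks and 9.34 at 12 weeks, with no overlap of 2 against 2 arrays, and S100a4, S100a8, S100a9 and S100a11 were also higher at 13 weeks without overlap, by 0.42, 0.28, 0.32 and 0.06. Among all genes, 16.8% were higher and 19.7% lower at 13 weeks in that way. In SLAM cells S100a6 was 10.10 and 11.05 in WT and 9.29 and 9.20 in mCG-PR, a difference of -1.34 ± 0.51. Among the 9 KLS arrays it followed S100a9 (r = 0.94) and S100a11 (r = 0.93). Its nearest genes over 13 arrays were Cela1 (0.860), Mrpl33 (0.859), Chchd7 (0.853), Dennd1c (0.852) and Lyz2 (0.844), the last being the lysozyme gene of myeloid cells.

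S100a4, known as a metastasis-associated protein that binds myosin, showed no ordered difference by genotype in KLS cells. It was 8.57, 8.59, 8.33 and 7.99 in WT KLS, 7.62, 9.64 and 7.30 in mCG-PR KLS of 6 weeks, and 8.22 and 8.42 in mCG-PR KLS of 13 weeks. The highest and the lowest KLS arrays were both of mCG-PR KLS of 6 weeks. Its differences were -0.18 ± 0.45 and -0.05 ± 0.51 at 6 and 13 weeks. At each age 2 of its 3 probe sets were lower and 1 higher. They differed by -0.19 to 0.28 at 6 weeks and by -0.29 to 0.40 at 13 weeks. In SLAM cells it was 8.54 and 8.81 in WT and 7.26 and 8.50 in mCG-PR (-0.79 ± 0.59). Its residual SD in KLS cells, 0.76, was larger than that of 99.8% of tested genes, followed by S100a6 with 0.67 and S100a1 with 0.60, against a median of 0.22.

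Replicate 2 of mCG-PR KLS of 6 weeks stood high. It was the highest of its 3 arrays for 7 of the 8 genes. It exceeded the mean of replicates 1 and 3 by 2.17 for S100a4, 1.48 for S100a6, 0.96 for S100a9, 0.95 for S100a8, 0.45 for S100a11, 0.41 for S100a13 and 0.34 for S100a10. For S100a1 the difference was -0.21. Without it, 6 of the 8 genes were lower than in WT KLS, 5 of them without overlap, with a median of -0.52. For that comparison of 2 with 4 arrays, 3.99% of all genes were lower and 13.5% higher without overlap. With it, 5 were lower and only S100a8 without overlap.

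S100a11, which binds annexin A1, varied little in KLS cells. It was 11.79, 11.89, 11.77 and 11.79 in WT KLS, 11.48, 11.98 and 11.57 in mCG-PR KLS of 6 weeks, and 11.53 and 11.42 in mCG-PR KLS of 13 weeks. The 13-week arrays lay just below the WT range (-0.33 ± 0.20) and the 6-week arrays on both sides of it (-0.13 ± 0.17). At 13 weeks 4 of its 5 probe sets were lower, with differences of -0.36 to 0.15, and at 6 weeks 3 were (-0.15 to 0.07). In SLAM cells S100a11 was 11.66 and 12.25 in WT and 11.23 and 11.09 in mCG-PR (-0.79 ± 0.23), and all 5 probe sets were lower. The mCG-PR SLAM arrays were the lowest of the 13.

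S100a10, the partner of annexin A2 at the plasma membrane, was as high in mCG-PR as in WT KLS cells or slightly higher. It was 10.02, 9.93, 10.18 and 9.83 in WT KLS, 10.15, 10.47 and 10.11 in mCG-PR KLS of 6 weeks, and 10.18 and 10.10 in mCG-PR KLS of 13 weeks. These ranges overlapped, with differences of 0.25 ± 0.26 and 0.15 ± 0.29. In SLAM cells it was 10.63 and 9.37 in WT and 9.18 and 8.56 in mCG-PR, the 2 lowest of all arrays. The difference between mCG-PR SLAM and mCG-PR KLS of 6 weeks was -1.37 ± 0.31, or 2.59-fold lower, and all 4 probe sets were lower (-1.52 to -1.28).

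The probe sets of S100a10 did not move alike between WT SLAM and WT KLS. The difference was -1.63 for 1 of the 4 and -0.13 to 0.24 for the other 3. Between mCG-PR and WT SLAM that same probe set differed by 0.40 and the other 3 by -1.48 to -1.23. Anxa2, named here after its values were seen because it encodes the partner of S100A10, differed by -0.29 to 0.48 in the 6 comparisons and was called in none.

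S100a1 separated the 2 SLAM groups most widely. It was 9.26 and 8.94 in WT SLAM and 5.10 and 7.63 in mCG-PR SLAM, a difference of -2.73 ± 0.66. It was 8.78, 7.72, 7.93 and 7.60 in WT KLS, 7.39, 7.98 and 8.97 in mCG-PR KLS of 6 weeks, and 7.63 and 7.60 in mCG-PR KLS of 13 weeks. WT SLAM thus lay above WT KLS (1.09 ± 0.57), and mCG-PR SLAM overlapped mCG-PR KLS of 6 weeks with a lower mean (-1.75 ± 0.60). All 7 probe sets were lower in mCG-PR than in WT SLAM (-4.35 to -0.12). The lowest of them read 2.58 in mCG-PR SLAM replicate 1, and without that array the difference was -1.47.

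S100a13, which takes part in the release of interleukin-1 alpha and fibroblast growth factor 1, showed the narrowest range of the 8 genes. It was 8.44, 8.40, 8.42 and 8.62 in WT KLS, 8.48, 8.86 and 8.42 in mCG-PR KLS of 6 weeks, and 8.73 and 8.50 in mCG-PR KLS of 13 weeks. In SLAM cells it was 8.85 and 8.25 in WT and 8.50 and 8.86 in mCG-PR. The groups overlapped in each of the 6 comparisons, with differences of 0.03 to 0.15. Although its promoter window overlaps that of S100a1, the values of the 2 genes had r = -0.02 over 13 arrays.

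**Figure D4:**
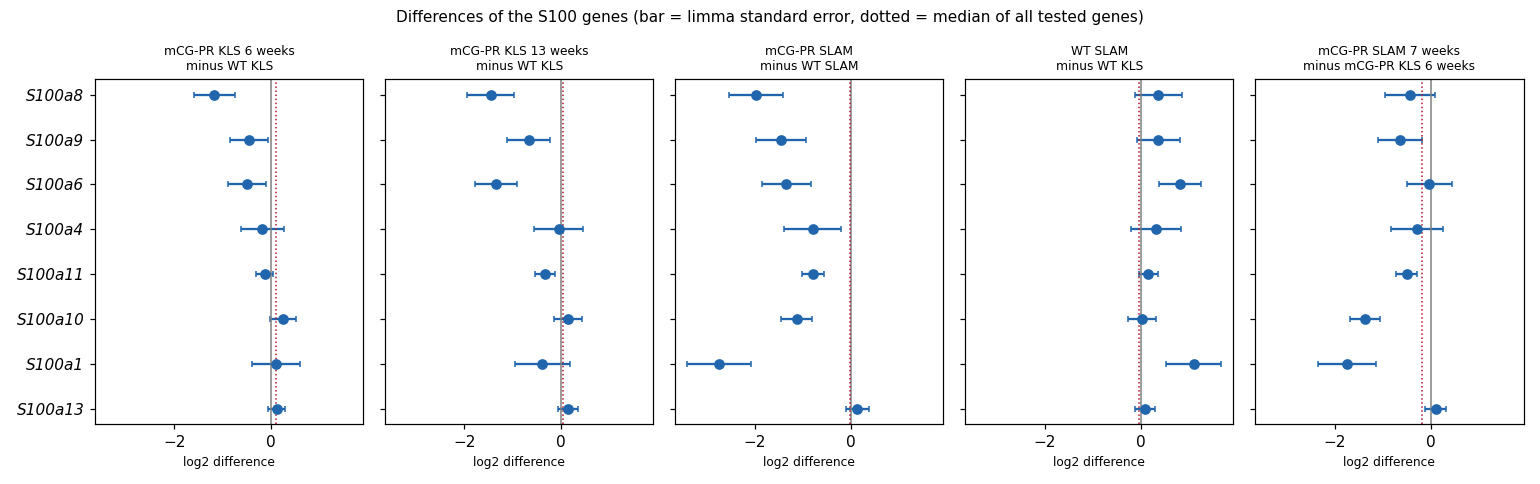
Log2 differences (x axis) of the 8 S100 genes in 5 comparisons, with bars for the limma standard error, a solid line at 0 and a dotted line at the median of all tested genes. S100a8 lies at -1.17, -1.46 and -1.96 in the 3 comparisons of mCG-PR with WT cells, and S100a10 and S100a1 lie furthest left in the comparison of mCG-PR SLAM with mCG-PR KLS of 6 weeks.

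Counted over the 8 genes, 5 were lower in mCG-PR KLS of 6 weeks than in WT KLS, 1 of them without overlap, and none was called by limma. S100a1 counted as higher (0.11 ± 0.50), although 6 of its 7 probe sets were lower. The sign changed in 5 of 17 alternatives for S100a1, in 3 for S100a4 and in 2 for S100a13. Among all 10575 genes, 0.00946% were called either way in this comparison while 1.54% were lower and 9.46% higher without overlap. At 13 weeks 6 were lower and 4 of them, S100a6, S100a8, S100a9 and S100a11, did not overlap; 0.0% of all genes were called while 10.2% were lower and 14.8% higher without overlap. The median difference of the 8 genes was -0.15 at 6 weeks and -0.36 at 13 weeks, against 0.11 and 0.05 over all tested genes. Of all genes, 28.3% and 42.3% were lower. Between the ages of mCG-PR KLS, 6 were lower at 13 weeks and none was called (0.0% of all genes) or lay apart (20.1% of all genes lower, 10.7% higher), and without replicate 2 of 6 weeks only 3 were lower. With all arrays, 60.2% of all genes were lower at 13 than at 6 weeks, and the median of the 8 was -0.21 against -0.07. Limma made 1, 0 and 0 calls over all genes in these 3 comparisons, while 704, 784 and 670 genes had an unadjusted p under 0.05. The rule that chose the genes used these contrasts, so nothing is read from their share against the whole.

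In SLAM cells 7 of the 8 genes were lower in mCG-PR than in WT, all 7 without overlap of 2 against 2 arrays, which held for 18.8% of all genes (16.4% were higher in that way), and S100a1 was called (2.55% of all genes). Their median was -1.23 against -0.02, and 52.3% of all genes were lower. With any 1 of the 4 arrays left out, 7 or 8 were lower and the median lay between -1.45 and -0.86. Single genes moved more: S100a10 had -0.50 without WT SLAM replicate 1, S100a6 and S100a11 had -0.86 and -0.50 without WT SLAM replicate 2, and S100a4 had -0.17 without mCG-PR SLAM replicate 1. All 8 genes were higher on average in WT SLAM than in WT KLS, against 45.1% of all genes. Of the 8, 1 (S100a1) lay apart (12.9% of all genes, with 22.3% lower) and none was called (11.6% of all genes). The WT SLAM mice were younger than the WT KLS mice, so age and population cannot be told apart here. S100a10 was higher by only 0.01 ± 0.29, with 3 of its 4 probe sets lower. Without WT SLAM replicate 2, the array with the high neutrophil markers, 5 of the 8 genes were higher and 3 lower. Between mCG-PR SLAM and mCG-PR KLS of 6 weeks, 7 were lower, against 63.3% of all genes. The median of the 8 was -0.47 against -0.19. Of the 7, 2 (S100a10 and S100a11) were without overlap (35.1% of all genes, with 13.2% higher), and S100a10 was called (22.6%). The limma fit used 1 spread for the quieter KLS and the noisier SLAM arrays, and a limma fit of only the 2 SLAM groups called 0 genes between them, with 661 at an unadjusted p under 0.05. S100a1 was called in 5 of 13 alternatives, with mCG-PR SLAM replicate 1 and each WT SLAM array among those whose omission ended the call. S100a10 was called in 12 of 14, but not after quantile normalisation or without mCG-PR SLAM replicate 2. Since the 8 genes were chosen from these contrasts, these calls are a description and no test.

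Among the listed annexins, receptors, EF-hand genes, transcription factors and other S100-type genes, limma called none in any comparison between KLS groups. S100g and S100pbp, the 2 tested genes of the last list, were called in none of the 6 comparisons. Of 9 tested annexin genes (Ahnak included), 6 were higher at 6 weeks and 4 at 13 weeks, against 71.7% and 57.7% of all genes. Called were 2 between mCG-PR SLAM and mCG-PR KLS of 6 weeks: Anxa1, the partner of S100A11, fell by 0.82 ± 0.27 (limma adjusted p = 0.0436), and Anxa3 fell by 1.85 ± 0.41 (limma adjusted p = 0.00584). Of 10 tested receptor and signalling genes for extracellular S100 proteins, Ly96, the co-receptor of TLR4, and Emb, a membrane glycoprotein related to basigin, were lower in SLAM than in KLS cells of both genotypes. Ly96 fell by 1.36 ± 0.34 in WT (limma adjusted p = 0.0217) and fell by 1.28 ± 0.36 in mCG-PR (limma adjusted p = 0.0210). Emb fell by 1.38 ± 0.29 in WT (limma adjusted p = 0.00974) and fell by 2.05 ± 0.31 in mCG-PR (limma adjusted p = 0.000633). Tnf fell in WT SLAM by 1.59 ± 0.26 (limma adjusted p = 0.00260). Tlr4 itself differed by -0.60 ± 0.24 in mCG-PR KLS of 13 weeks (limma adjusted p = 0.627). The calls of Tnf, of Emb in mCG-PR and of Anxa3 were made in every alternative run, Emb in WT in 13 of 16, Ly96 in 10 of 15 and 9 of 13, and Anxa1 in 4 of 14.

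Of 12 tested transcription factors known at S100a8 and S100a9, 10 were higher at 6 weeks and 9 at 13 weeks, with medians of 0.08 and 0.20, and none was called. Of all genes, 71.7% and 57.7% were higher, with medians of 0.11 and 0.05. Irf8 had the largest value, 1.47 ± 0.29 at 6 weeks, with a limma adjusted p of 0.262. Cebpa, the C/EBP factor needed for the granulocyte fate, differed by 0.04 ± 0.22 and 0.21 ± 0.25. Between mCG-PR SLAM and mCG-PR KLS of 6 weeks, 4 factors were lower by limma. Irf8 differed by -1.93 ± 0.35 (limma adjusted p = 0.00186), Spi1, which encodes PU.1, by -1.09 ± 0.31 (limma adjusted p = 0.0236), Cebpa by -0.80 ± 0.26 (limma adjusted p = 0.0396) and Jun by -0.89 ± 0.30 (limma adjusted p = 0.0479). Of 14 alternatives each, Irf8 was called in 14, Spi1 in 7, Cebpa in 3 and Jun in 3. Of 18 other tested EF-hand genes, none was called by genotype. By limma, 5 were lower in WT SLAM than in WT KLS and 4 in mCG-PR SLAM than in mCG-PR KLS of 6 weeks, with Rcn1, Calu and Sdf4 in both sets; 11.6% and 22.6% of all genes were called in these comparisons. In WT, Rcn1 was called in 16 of 16 alternatives, Sdf4 in 14, Capn2 in 11, and Calu and Micu2 in 7 each. In mCG-PR, Calu was called in 12 of 14, Rcn2 in 8, Rcn1 in 6 and Sdf4 in 4.

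The stretch of chromosome 3 between S100a1 and S100a10 holds 101 genes, and 11 others in it were tested, mostly of the skin barrier. None was called. In mCG-PR KLS of 6 weeks 10 of the 11 were lower, with a median of -0.15 against 0.11 for all genes, and at 13 weeks 9 of the 11 were higher, with a median of 0.16 against 0.05.

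Other genes tracked single S100 genes over the 13 arrays. Beside Ngp, those most like S100a8 included 1810037I17Rik (0.891) and Mterf2 (0.874), and the ribosomal protein genes Rps25 (0.872) and Rpl8 (0.856). Mterf2 was also first for S100a9 (0.931) and S100a11 (0.917). S100a10 was nearest to Ppm1a (0.946), S100a1 to Zbtb22 (0.925), S100a13 to Thap4 (0.898) and S100a4 to Afap1l1 (0.819). On deviations from group means, which leave out the differences between groups, S100a8 and S100a9 shared their nearest gene, Il2rg (0.971 and 0.974). These correlations were over 13 arrays that fall into shared groups, and the highest of 10575 genes is high by selection.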

How the data were processed

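RNA from flow-sorted bone marrow cells of 13 mice was amplified from 20 ng and hybridised to 1 array each, per the labels' protocols. The authors deposited 1 linear intensity value per probe set and array, from 2.34 to 21748.2. The table has 229581 probe sets. The submitters' processing notes name RMA and mm9, with no version or settings given in the sources used here. Values were log2-transformed without further scaling. Probe sets listed with 1 gene (208397) were used, and those with several (3965) or none (17219) were not. Symbols were updated through RefSeq (14132 current, 2124 updated, 43 not in it). A gene's value was the median of its probe sets, with at least 3 required (15107 of 16277 genes). The test kept genes whose mean log2 value exceeded the 30th percentile, a threshold of 6 (10575 genes).

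Groups were compared with limma 3.58.1 in R 4.3.3, in 1 fit of 5 groups, two-sided, with Benjamini-Hochberg adjustment across the tested genes and calls at 0.05. The script was tested on simulated data. Each array was 1 mouse. Alternatives were other filters and gene summaries, quantile and median scaling, array weights, the replicate number as a block, younger WT controls and leaving out each array. "Not overlapping" means that all arrays of a group lay beyond all of the other. The members and gene lists were chosen with earlier results of these data known. Named list genes were those called in any comparison, otherwise drawn from the 2 largest differences per list and comparison. Of the KLS and SLAM gate markers, read as a check of the sorted cells, only some of the called genes are named. The genes most like a member were the 5 with the highest Pearson correlation for S100a8 and S100a6 and the 3 for the others. Lists of promyelocyte, monocyte, B cell, T and NK cell, erythroid and megakaryocyte markers were read as well.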

Additional observations from a re-analysis of the deposited data

Results flagged for a closer look

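In WT KLS, 3 genes had an array that stood apart from the other 3 among the 61 genes examined this way, where chance marks about 1 group in 20. They were S100a11, with 11.89 in replicate 2, and the marker genes Mpo and Klf1, whose highest arrays read 11.12 and 6.48.

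The difference of S100a1 between SLAM and KLS cells ran in opposite directions in the 2 genotypes. Each WT SLAM array lay above the WT KLS mean and each mCG-PR SLAM array below the mean of mCG-PR KLS of 6 weeks, and the mCG-PR effect minus the WT effect was -2.84. Relative to the WT mean of the same population, S100a10 was higher in every mCG-PR KLS array and lower in both mCG-PR SLAM arrays. In KLS the genotypes overlapped, with 10.18 in WT KLS replicate 3 against 10.10 to 10.47 in mCG-PR KLS. There, 1 of the 4 probe sets was lower in mCG-PR at each age. The SLAM effect minus the KLS effect was -1.38 for KLS of 6 weeks and -1.28 for KLS of 13 weeks. These differences of effects were not tested, since the genes were chosen from these contrasts.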

How the results depend on the processing

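The number of arrays, 2 to 4 in a group, limits every value, and signal over background limits S100a1, whose lowest probe set read 2.58. Of 720 recomputed differences of the 8 S100 genes, 691 moved by less than the spread between replicates (1 SD) and 29 by more; 50, in 21 of 48 differences, changed sign. S100a8 kept its sign in each alternative for mCG-PR against WT: -1.49 to -0.91 in KLS of 6 weeks, -1.57 to -1.32 in KLS of 13 weeks and -3.03 to -0.90 in SLAM. Counts of called genes are given in the order KLS 6 weeks, KLS 13 weeks, KLS 13 against 6 weeks, WT SLAM against WT KLS, mCG-PR SLAM against mCG-PR KLS, and mCG-PR against WT SLAM; they were 1, 0, 0, 1229, 2394 and 270. Array weights gave 4, 15, 1, 321, 1396 and 1. The replicate number as a block gave 0, 0, 0, 410, 1521 and 76; same-numbered arrays did not deviate together (21 pairs, r from -0.07 to 0.08), so they share only a number. Fits of only the compared groups, added after seeing the data, gave 2, 12, 0, 946, 1590 and 0. The mean of probe sets gave 0 for KLS 6 weeks and 421 for mCG-PR against WT SLAM, and quantile normalisation gave 0 and 503. For mCG-PR against WT SLAM no filter gave 171. With WT KLS replicates 3 and 4 only, KLS 6 weeks gave 0 and WT SLAM against WT KLS gave 440. Leaving out 1 array at a time gave 0 to 3 for KLS 6 weeks, 754 to 1358 for WT SLAM against WT KLS and 371 to 822 for mCG-PR against WT SLAM, where a lone array is assumed to vary like the others. The cause of these changes was not tested. Other alternatives kept each count within 1.5 times.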
